A study of Mus musculus with 10 samples.

Results

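The 45 genes described here are the H2 genes on mouse chromosome 17, the major histocompatibility complex (MHC). They are every row of the deposited expression table with a name starting in H2- on that chromosome, out of 55952 genes in all. They comprise 32 class I genes, 12 class II genes and 1 gene of neither class, H2-Ke6, which encodes a hydroxysteroid dehydrogenase and carries the prefix for its position only. The libraries came from kidneys labelled as C57BL/6 mice, an inbred strain, after 30 days at 4200 m (hypoxia, 5 libraries) or 30 days at 400 m (control, 5 libraries). No transgene, mutation or drug was named in the labels, and no sex or age is given in the sources used here. Altitude and the place of housing cannot be told apart in this design. The labels do not state that each library is a separate mouse, so the p-values cover the spread between libraries and not necessarily between animals. The extraction protocol in the labels speaks of retina whereas all 10 samples are labelled kidney. The 10 proximal tubule markers summed to 2842 to 3167 FPKM in hypoxia replicates 1 to 3, 2715 FPKM in hypoxia replicate 4, 1491 FPKM in hypoxia replicate 5 and 2762 to 3771 FPKM in controls. FPKM is fragments per kilobase of gene scaled to the mapped fragments of the library, so that levels can be compared between genes of different length.

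Hypoxia replicates 4 and 5 stood apart from the other libraries over all genes, and where their values are printed they are given apart. The median correlation of a library with the others of its own group was 0.854 for hypoxia replicate 5 and 0.959 for hypoxia replicate 4, against 0.968 to 0.971 for hypoxia replicates 1 to 3 and 0.979 to 0.982 for controls. In hypoxia replicate 5 the 10 B cell markers summed to 455 FPKM, and in hypoxia replicate 4 the 7 adrenal cortex markers summed to 1052 FPKM. Controls had 1.61 to 2.36 FPKM and 0.920 to 1.55 FPKM for these lists. Reads assigned to genes numbered 16561672 to 17845464 per library, and 3 reads on a gene of 1 kilobase corresponded to 0.165 to 0.183 FPKM. Comparisons are of hypoxia replicates 1 to 3 with the 5 controls unless stated, on log2(FPKM + 0.5), with limma across 14724 genes and Benjamini-Hochberg adjustment over all of them. A gene is called at an adjusted p below 0.05.

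MHC class I molecules sit on nearly all nucleated cells and show peptides from inside the cell to CD8+ T cells and NK cells; the heavy chain pairs with beta-2 microglobulin. The classical heavy chains of this strain are H2-K1 and H2-D1, while the Q, T and M regions hold the many nonclassical class I genes. Class II molecules, pairs of an alpha and a beta chain, show peptides from taken-up protein to CD4+ T cells and are made chiefly by B cells, dendritic cells and macrophages. Interferon gamma raises both classes, acting through the transactivator NLRC5 for class I and CIITA for class II.

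To show the regulatory sequence of the class I genes described in most detail, a stretch of promoter is given for the 4 Q region genes and the 2 classical genes in which the interferon motif was found. The sequences are from RefSeq, build GRCm38.p6, printed 5′ to 3′ on the gene's strand (plus for all but H2-K1, which lies on the minus strand). The stretches are placed by the RefSeq start, which can differ from the gene start given further on. That of H2-D1 lies inside the gene span given there. Capitals mark TTTCACTTC, the reverse complement of the core of the interferon-stimulated response element, and GGGATTCCC, a kappa B core.
H2-Q4 (chr17:35379429-35379497): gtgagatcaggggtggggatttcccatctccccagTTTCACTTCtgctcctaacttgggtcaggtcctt
H2-Q6 (chr17:35424663-35424731): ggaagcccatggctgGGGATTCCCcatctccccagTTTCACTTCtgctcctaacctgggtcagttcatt
H2-Q7 (chr17:35439007-35439075): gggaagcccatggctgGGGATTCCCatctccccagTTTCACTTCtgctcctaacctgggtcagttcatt
H2-Q10 (chr17:35469899-35469967): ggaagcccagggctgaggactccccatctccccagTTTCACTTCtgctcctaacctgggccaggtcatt
H2-K1 (chr17:34000404-34000472): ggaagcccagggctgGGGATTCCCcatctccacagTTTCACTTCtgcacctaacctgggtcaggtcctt
H2-D1 (chr17:35262909-35262977): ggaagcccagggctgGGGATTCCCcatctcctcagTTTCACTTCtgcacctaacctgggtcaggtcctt

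The interferon motif, searched as GAANNGAAA on both strands of the window from 250 bases before to 50 bases after each start, was present in 8 of the 23 class I members that have a window and in 0 of 8 class II members, beside 7.52% of 32851 promoters. The kappa B core GGGATTCCC was present in 4 of 23 class I members (H2-K1, H2-D1, H2-Q6 and H2-Q7) and in 0 of 8 class II members, beside 0.353% of promoters. The windows of H2-T22 and H2-T23 held neither motif. A match is a description of letters and not a measured site.

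For class II, the stretch around the Y box, which NF-Y binds, is shown for 6 class II genes described further on. By the gene spans given further on, the stretches of H2-DMb1 and H2-DMb2 lie inside the gene, and that of H2-Oa crosses its start. Capitals mark GATTGG, or its reverse complement CCAATC.
H2-Aa (chr17:34287837-34287912, minus strand): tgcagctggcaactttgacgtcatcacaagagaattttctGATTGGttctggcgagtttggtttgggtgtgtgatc
H2-Eb1 (chr17:34305767-34305842, plus strand): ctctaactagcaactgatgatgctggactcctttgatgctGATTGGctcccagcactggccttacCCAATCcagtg
H2-DMb1 (chr17:34153089-34153164, plus strand): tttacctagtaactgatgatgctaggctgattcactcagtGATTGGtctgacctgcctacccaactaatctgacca
H2-DMb2 (chr17:34145118-34145193, plus strand): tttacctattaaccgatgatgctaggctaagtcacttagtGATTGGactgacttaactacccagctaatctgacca
H2-Ob (chr17:34238807-34238882, plus strand): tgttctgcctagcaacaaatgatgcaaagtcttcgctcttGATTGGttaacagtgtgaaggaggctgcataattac
H2-Oa (chr17:34092295-34092370, plus strand): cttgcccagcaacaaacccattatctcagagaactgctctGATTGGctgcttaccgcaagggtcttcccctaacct

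GATTGG, searched on both strands, was present in 7 of 8 class II windows and in 17 of 23 class I windows, beside 16.1% of all promoters. All 7 class II windows held GATTGG on the gene's strand. In class I only H2-T22 did, and the others held CCAATC there, that of H2-K1 being 8 bases after the start. An X box core searched as AGNNACAGA on both strands was present in 2 of 8 class II windows and 4 of 23 class I windows, beside 8.48% of promoters. The class II matches lay 187, 141 and 4 bases before the start in H2-Oa, whose GATTGG lay at 44, and 25 bases after the start in H2-Eb2. A window without these letters is not shown to lack an X box, so the count does not say which promoters have one.

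In hypoxia replicates 1 to 3, class I genes of the Q region (H2-Q4, H2-Q5, H2-Q6 and H2-Q7) and B2m, the light chain of all class I molecules, were higher than in controls. H2-Q6 had the largest change of the members called higher, at 1.95 times the control mean. The classical genes H2-K1 and H2-D1, the class II genes and nearly all interferon-related genes examined did not pass the test, and Calr and Pdia3 fell. Hypoxia replicates 4 and 5 had higher levels of most members that averaged at least 1 FPKM. The share of all genes that were higher in these libraries was not computed. In hypoxia replicate 5, H2-DMb2, H2-Ob and H2-Oa were 72.0 to 94.4 times the control mean. Gene coordinates are those of the deposited table, which match GRCm38.

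The classical class I genes were the most abundant members, and they did not pass the test in hypoxia replicates 1 to 3. H2-D1 (chr17:35262730-35267499, plus strand), a classical heavy chain, had 88.2, 100.4 and 97.7 FPKM in hypoxia replicates 1 to 3, 153 FPKM in hypoxia replicate 4 and 298 FPKM in hypoxia replicate 5, against 93.2, 105.9, 90.2, 95.0 and 80.8 FPKM in controls. Hypoxia replicates 1 to 3 lay inside the control range, and hypoxia replicates 4 and 5 above it. The fit of replicates 1 to 3 gave a log2 fold change of 0.04 with an SE of 0.09 (limma adjusted p = 0.814).

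H2-K1 (chr17:33996017-34000347, minus strand), the other classical heavy chain, had 79.2, 92.4 and 91.5 FPKM in hypoxia replicates 1 to 3, 160.4 FPKM in hypoxia replicate 4 and 294 FPKM in hypoxia replicate 5, against 70.9, 85.6, 70.5, 76.3 and 65.4 FPKM in controls. Hypoxia replicate 1 fell inside the control range and the other 4 hypoxia libraries lay above it. In the fit of replicates 1 to 3 the log2 fold change was 0.25 with an SE of 0.10 (limma adjusted p = 0.127). H2-K1 passed under quantile normalization, with an adjusted p of 0.0292.

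In hypoxia replicates 1 to 3, 4 genes of the Q region, 8 class I members within 154159 bases (chr17:35320405-35474563), rose.
H2-Q6 (chr17:35424850-35430055, plus strand) encodes a nonclassical heavy chain related to the Qa-2 antigen. It had 30.8, 32.7 and 28.8 FPKM in hypoxia replicates 1 to 3, 50.5 FPKM in hypoxia replicate 4 and 61.3 FPKM in hypoxia replicate 5, against 17.7, 18.0, 15.05, 14.0 and 14.1 FPKM in controls. All 5 hypoxia libraries lay above all 5 controls. The means were 30.7 ± 1.92 FPKM in hypoxia replicates 1 to 3 (SD, n = 3) and 15.8 ± 1.93 FPKM in controls (SD, n = 5). Between these groups the log2 fold change was 0.95 with an SE of 0.10 (limma adjusted p = 0.00106).

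H2-Q4 (chr17:35379617-35385290, plus strand), which encodes the Qb-1 antigen, had 12.0, 14.2 and 13.2 FPKM in hypoxia replicates 1 to 3, 22.2 FPKM in hypoxia replicate 4 and 29.8 FPKM in hypoxia replicate 5, against 7.73, 10.8, 7.31, 8.12 and 7.998 FPKM in controls. The groups did not overlap, and control replicate 2 was the nearest control (log2 fold change 0.63, SE 0.12, limma adjusted p = 0.0118).

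H2-Q7 (chr17:35439155-35443773, plus strand) encodes the Qa-2 antigen, a nonclassical molecule that can be held in the membrane by a lipid anchor. It had 5.11, 6.39 and 4.90 FPKM in hypoxia replicates 1 to 3, 7.97 FPKM in hypoxia replicate 4 and 17.3 FPKM in hypoxia replicate 5, against 3.89, 4.04, 3.53, 2.68 and 3.91 FPKM in controls. The groups did not overlap (log2 fold change 0.54, SE 0.13, limma adjusted p = 0.0320).

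H2-Q5 (chr17:35394126-35397800, plus strand) is annotated as a polymorphic pseudogene. It had 2.65, 3.56 and 3.89 FPKM in hypoxia replicates 1 to 3, 4.68 FPKM in hypoxia replicate 4 and 9.28 FPKM in hypoxia replicate 5, against 2.33, 2.22, 2.28, 1.80 and 2.38 FPKM in controls. The groups did not overlap, with hypoxia replicate 1 closest to the controls (log2 fold change 0.51, SE 0.13, limma adjusted p = 0.0329). The calls of H2-Q5 and H2-Q7 were each lost in 5 of the 8 fits that left out 1 library, with adjusted p up to 0.125 for H2-Q5 without hypoxia replicate 3 and up to 0.0962 for H2-Q7 without hypoxia replicate 2. The call of H2-Q6 held in all 8 such fits and that of H2-Q4 in all 8, with adjusted p up to 0.00822 and 0.0449.

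H2-Q2 and H2-Q10 were tested at lower levels and did not pass.
H2-Q2 had 0.889, 1.41 and 1.31 FPKM in hypoxia replicates 1 to 3, 0.594 FPKM in hypoxia replicate 4 and 0.704 FPKM in hypoxia replicate 5, against 0.138 to 0.838 FPKM in controls (log2 fold change 0.76, SE 0.24, limma adjusted p = 0.0691). H2-Q10, whose product is secreted and best known from liver, had 1.12, 1.11 and 0.268 FPKM in hypoxia replicates 1 to 3, 0.816 FPKM in hypoxia replicate 4 and 0.656 FPKM in hypoxia replicate 5, against 0.274 to 0.494 FPKM in controls (log2 fold change 0.54, SE 0.26, limma adjusted p = 0.205). H2-Q2 passed in the voom fit (adjusted p = 0.0432), and H2-Q10 passed without hypoxia replicate 3 (limma adjusted p = 0.0293). Levels of H2-Q2 and H2-Q10 in hypoxia replicates 4 and 5 were below their own highest values in replicates 1 to 3, whereas H2-Q4 to H2-Q7 were above them.

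Of the 14 class I members tested, 4 were called higher and 1 lower, with 10 positive and 4 negative fold changes and a median log2 fold change of 0.22, beside -0.00046 over all genes. Among all genes tested, 12.3% were called, 4.53% higher and 7.75% lower; these are 667 and 1141 genes, against 860 higher and 931 lower under quantile normalization. The count of 5 class I calls was 2 without control replicate 1, control replicate 3 or hypoxia replicate 2, and 3 without control replicate 2, hypoxia replicate 1 or hypoxia replicate 3. Hypoxia replicates 1 to 3 lay wholly above the controls for 5 tested class I members (H2-Q2, H2-Q4, H2-Q5, H2-Q6 and H2-Q7) and wholly below for 1, beside 9.73% of all genes above and 11.8% below. With all 5 hypoxia libraries, 3 of 15 tested class I members were called higher and 0 lower. H2-T10, among the 15, passed the filter only through hypoxia replicate 5. In that fit 11.5% of genes were called, 3.66% higher and 7.79% lower. H2-Q6, H2-Q4 and H2-Q5 were called there, with log2 fold changes of 1.29, 1.01 and 0.87 (limma adjusted p = 0.00497, 0.0218 and 0.0495), and H2-Q7 missed the threshold at 0.0563.

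**Figure D1:**
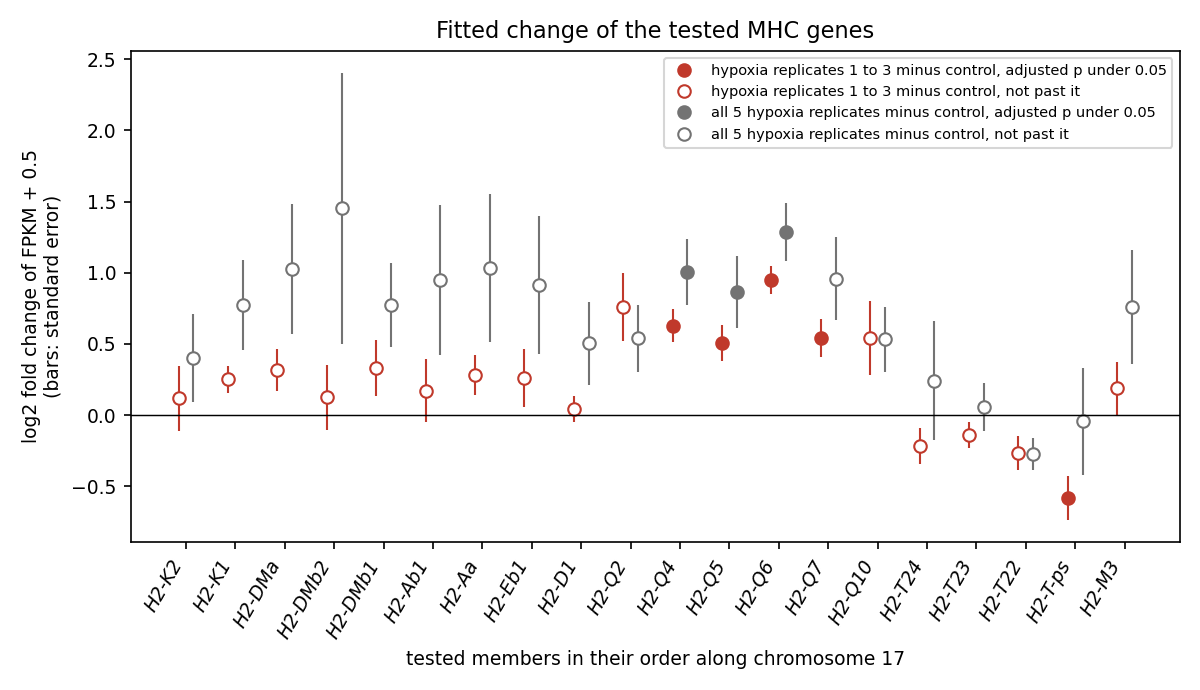
Log2 fold change (vertical axis, FPKM + 0.5) of the 20 tested members in their order along chromosome 17, with standard errors as bars; red points are hypoxia replicates 1 to 3 minus control and grey points all 5 hypoxia replicates minus control, filled where the adjusted p is under 0.05. H2-Q4, H2-Q5, H2-Q6 and H2-Q7 are filled above 0 in red and H2-T-ps is filled below 0, while the 6 class II members are open.

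In sums over regions, the 8 Q region members had 52.6, 59.5 and 52.5 FPKM in hypoxia replicates 1 to 3, 86.8 FPKM in hypoxia replicate 4 and 119.8 FPKM in hypoxia replicate 5, against 27.6 to 36.2 FPKM in controls. H2-K1 and H2-D1 together had 167, 193 and 189 FPKM in hypoxia replicates 1 to 3, 314 FPKM in hypoxia replicate 4 and 592 FPKM in hypoxia replicate 5, against 146 to 192 FPKM in controls. The ratio of the Q region sum to the H2-K1 and H2-D1 sum was 0.278 to 0.314 in hypoxia replicates 1 to 3, 0.277 in hypoxia replicate 4 and 0.202 in hypoxia replicate 5, against 0.161 to 0.199 in controls. Both sums were above all controls in hypoxia replicate 5, and hypoxia replicates 1 to 3 lay above the control range for the Q sum and overlapped it for the classical sum. The difference between the Q region and the classical genes was not tested.

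**Figure D2:**
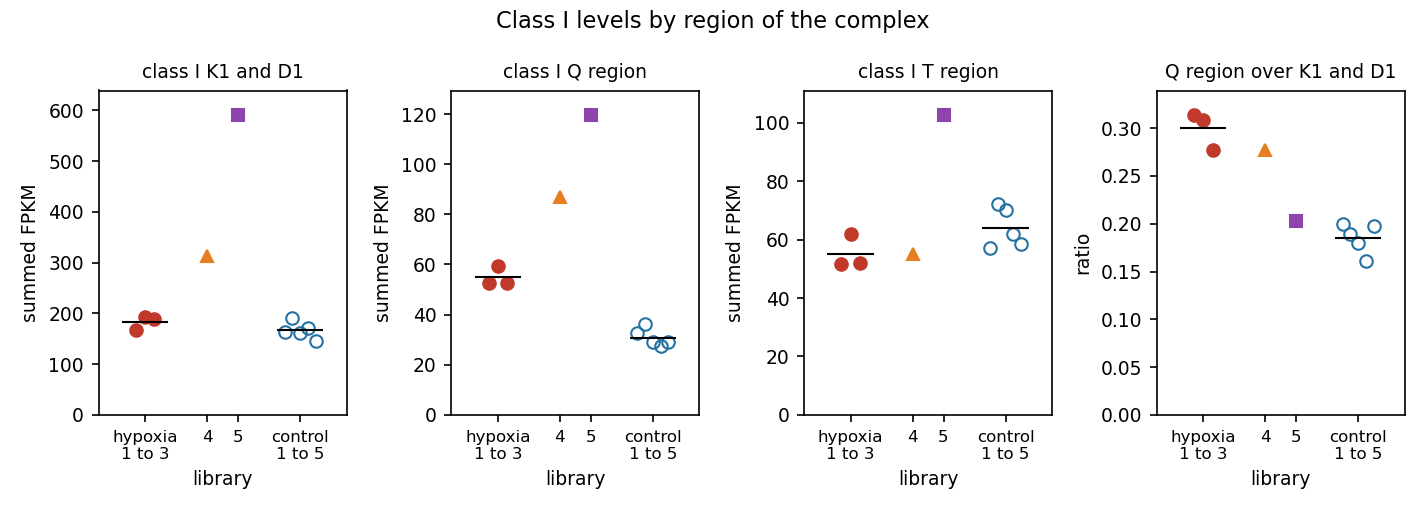
Summed FPKM per library of H2-K1 and H2-D1, of the 8 Q region members and of the 7 T region members, and the ratio of the Q sum to the H2-K1 and H2-D1 sum; points are libraries, horizontal lines are the means of hypoxia replicates 1 to 3 and of the 5 controls, and hypoxia replicates 4 and 5 are drawn apart. The Q sum of hypoxia replicates 1 to 3 (52.5 to 59.5 FPKM) lies above all controls (27.6 to 36.2 FPKM), and the T sum overlaps them.

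Class I genes are near copies of each other, which limits how reads can be told apart. Of the 100-base stretches in their transcripts, 14.0% of those of H2-Q5, 12.0% of H2-Q7, 10.8% of H2-Q6 and 8.01% of H2-Q10 also occurred in a transcript of another gene, most often another Q gene, against 2.16% for H2-Q4, 3.59% for H2-D1 and 0.957% for H2-K1. The handling of reads with several matches is not stated in the labels. H2-Q4 also overlaps an antisense gene, Gm11131, which reached at most 0.949 FPKM; without a stated strand setting their reads cannot be told apart. The 4 other genes within the Q region reached at most 3.29 FPKM (Gm8741).

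Summed levels of immune cell markers stand beside these values and were not tested. The 5 leukocyte markers summed to 18.9 to 23.6 FPKM in hypoxia replicates 1 to 3 and 11.9 to 19.2 FPKM in controls, and all 5 had a higher mean in hypoxia replicates 1 to 3 with 0 called. The 10 B cell markers summed to 2.77 to 3.28 FPKM in hypoxia replicates 1 to 3 and 1.61 to 2.36 FPKM in controls, with 9 of 10 under 1 FPKM in both groups. T cell markers summed to 2.47 to 4.15 FPKM in hypoxia replicates 1 to 3 and 1.24 to 2.40 FPKM in controls, and NK cell markers to 0.965 to 1.61 FPKM in hypoxia replicates 1 to 3 and 0.404 to 0.713 FPKM in controls. Of these 4 lists, the NK list alone had a marker at 0 throughout hypoxia replicates 1 to 3, 1 of 6, and none had one at 0 in all controls. Macrophage markers summed to 81.3 to 117 FPKM in hypoxia replicates 1 to 3 and 72.8 to 97.9 FPKM in controls, and dendritic cell markers to 5.26 to 6.43 FPKM in hypoxia replicates 1 to 3 and 3.76 to 6.38 FPKM in controls. A higher mean in hypoxia replicates 1 to 3 was found for 7 of 11 macrophage and 7 of 8 dendritic cell markers. The 9 endothelial markers summed to 191 to 205 FPKM in hypoxia replicates 1 to 3 and 184 to 249 FPKM in controls. The part of these cells in the higher Q region levels was not tested, and in bulk tissue more cells of a type and more RNA per cell cannot be told apart.

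All 4 tested T region genes had negative fold changes in hypoxia replicates 1 to 3, and 1 of them, H2-T-ps, passed the test. H2-T23 (chr17:36029773-36032855, minus strand) encodes Qa-1, which presents signal peptides of other class I chains to NK cell receptors. It had 28.0, 34.1 and 27.9 FPKM in hypoxia replicates 1 to 3, 32.2 FPKM in hypoxia replicate 4 and 54.9 FPKM in hypoxia replicate 5. Controls had 31.5, 36.1, 35.5, 31.5 and 30.4 FPKM (log2 fold change -0.14, SE 0.09, limma adjusted p = 0.358). With hypoxia replicates 4 and 5 added its fold change was 0.06.

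H2-T22 (chr17:36037128-36042747, minus strand), whose product is recognised by some gamma delta T cells in the mouse, had 20.1, 23.2 and 20.4 FPKM in hypoxia replicates 1 to 3, 18.5 FPKM in hypoxia replicate 4 and 23.8 FPKM in hypoxia replicate 5, against 21.2, 30.7, 28.8, 25.1 and 23.4 FPKM in controls. It was the only member averaging at least 1 FPKM over the 10 libraries that was not above all controls in hypoxia replicate 5. Its log2 fold change was -0.27 with hypoxia replicates 1 to 3 (SE 0.12, limma adjusted p = 0.179) and -0.27 with all 5 hypoxia libraries (SE 0.11, limma adjusted p = 0.133). H2-T22 shares 8.86% of its 100-base stretches with other genes, mainly H2-T10.

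H2-T24 had 2.61, 3.51 and 2.78 FPKM in hypoxia replicates 1 to 3, 2.89 FPKM in hypoxia replicate 4 and 16.7 FPKM in hypoxia replicate 5. Controls had 2.76, 3.74, 4.06, 3.61 and 3.48 FPKM (log2 fold change -0.22, SE 0.13, limma adjusted p = 0.293). The groups overlapped, and with all 5 hypoxia libraries the fold change was 0.24. H2-T-ps (chr17:36109234-36111658, minus strand), an H2-T pseudogene by its name, had 0.535, 0.516 and 0.437 FPKM in hypoxia replicates 1 to 3, 1.00 FPKM in hypoxia replicate 4 and 3.75 FPKM in hypoxia replicate 5, against 1.18, 0.799, 1.12, 1.19 and 0.733 FPKM in controls. Hypoxia replicates 1 to 3 lay below all controls (log2 fold change -0.58, SE 0.15, limma adjusted p = 0.0406). The gene had 211 reads over all 10 libraries, and its call was lost in 7 of the 8 fits that left out 1 library, with adjusted p up to 0.126 without hypoxia replicate 3, and with all 5 hypoxia libraries (0.949).

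H2-T10, a close relative of H2-T22, was at 0.3004 to 0.403 FPKM in hypoxia replicates 1 to 3, 0.511 FPKM in hypoxia replicate 4, 3.58 FPKM in hypoxia replicate 5 and 0.226 to 0.338 FPKM in controls. The summed level of the 7 T region members was 51.6 to 61.8 FPKM in hypoxia replicates 1 to 3. It was 57.1 to 72.1 FPKM in controls, so these groups overlapped. Hypoxia replicate 4 had 55.2 FPKM and hypoxia replicate 5 had 102.8 FPKM.

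H2-M3, which presents peptides that start with formylmethionine, had 1.86, 2.53 and 2.84 FPKM in hypoxia replicates 1 to 3, 3.96 FPKM in hypoxia replicate 4 and 12.9 FPKM in hypoxia replicate 5. Controls had 1.79, 2.67, 2.57, 1.91 and 1.42 FPKM (log2 fold change 0.19, SE 0.19, limma adjusted p = 0.544). H2-K2, annotated as a transcribed pseudogene, had 1.40, 1.93 and 0.885 FPKM in hypoxia replicates 1 to 3, 1.35 FPKM in hypoxia replicate 4 and 4.52 FPKM in hypoxia replicate 5. Controls had 0.837, 0.924, 1.74, 1.57 and 1.16 FPKM (log2 fold change 0.12, SE 0.23, limma adjusted p = 0.779). For both genes hypoxia replicates 1 to 3 overlapped the controls and hypoxia replicate 5 lay above them.

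The other class I members were at or near 0. No read was found in any library for H2-T3, H2-M10.1, H2-M10.3, H2-M10.4, H2-M10.5-ps1, H2-M10.6 and H2-M11. H2-M10.2, H2-M9, H2-M1 and H2-M10.5 had at most 3 reads in all, which makes 10 of the 14 M region members with at most 3 reads. H2-Q1, H2-Q3, H2-Bl, H2-M2, H2-M5 and H2-M6-ps had 50 reads or fewer and were not tested; H2-Bl was at 0.0347 to 0.0982 FPKM in hypoxia replicates 1 to 3 and 0.107 to 0.531 FPKM in controls. H2-Ke6 had at most 0.235 FPKM in any library, and 61.6% of its 100-base stretches also occur in the overlapping Gm20427.

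**Figure D3:**
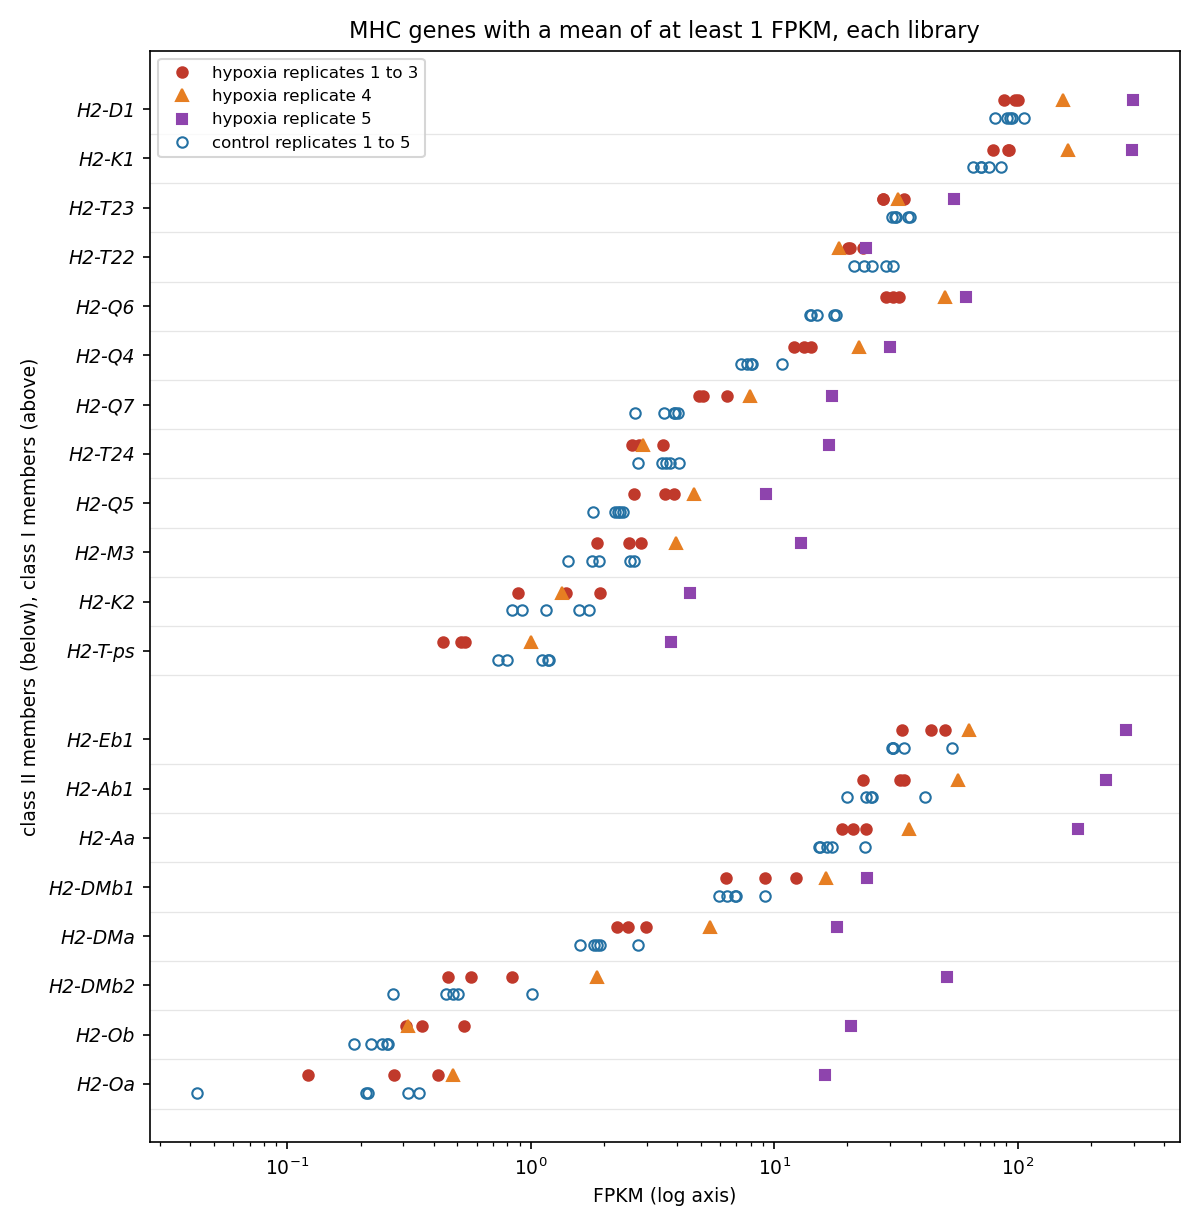
FPKM on a log axis (horizontal) of the 20 members averaging at least 1 FPKM, 12 class I genes above and 8 class II genes below; filled red points are hypoxia replicates 1 to 3, the orange triangle hypoxia replicate 4, the purple square hypoxia replicate 5, and open blue points the 5 controls. The purple square is right of all controls for 19 of the 20 genes, H2-T22 being the exception. H2-Oa, H2-Ob, H2-DMb2 and H2-T-ps average 1 FPKM only through that library. The share of all genes above all controls in it was not computed, so the count is not a result about the members.

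Class II genes were not called in hypoxia replicates 1 to 3: 0 of 6 tested members passed in limma, beside 12.3% of all genes tested. Of the 6, 0 had an unadjusted limma p below 0.05, a share not computed over all genes, and 0 passed in a voom fit on the recovered reads. All 6 fold changes were positive, also under TMM scaling and quantile normalization, with a median of 0.27 on the log2 scale beside -0.00046 over all genes. The direction of H2-DMb2 turned without hypoxia replicate 3. No tested class II member had hypoxia replicates 1 to 3 wholly outside the controls, beside 9.73% of all genes above and 11.8% below. With 6 members tested, these counts of 0 are not a result about class II.

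H2-Eb1 (chr17:34305867-34316674, plus strand), the beta chain of the I-E molecule, was the most abundant class II member. It had 33.6, 44.3 and 50.3 FPKM in hypoxia replicates 1 to 3, 63.0 FPKM in hypoxia replicate 4 and 279 FPKM in hypoxia replicate 5. Controls had 30.7, 54.0, 30.6, 34.2 and 30.9 FPKM (log2 fold change 0.26, SE 0.20, limma adjusted p = 0.446). Control replicate 2 was above all of hypoxia replicates 1 to 3. H2-Ea, the alpha chain partner, is known to be disrupted by a deletion in this strain, and 1 read was counted for it over all 10 libraries, in hypoxia replicate 5.

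H2-Ab1 (chr17:34257689-34269419, plus strand), the beta chain of the I-A molecule, had 23.1, 33.0 and 34.0 FPKM in hypoxia replicates 1 to 3, 57.1 FPKM in hypoxia replicate 4 and 231 FPKM in hypoxia replicate 5. Controls had 23.8, 41.5, 19.9, 25.2 and 25.01 FPKM (log2 fold change 0.17, SE 0.22, limma adjusted p = 0.660). Its partner H2-Aa (chr17:34282744-34287823, minus strand), the alpha chain, had 19.1, 21.2 and 23.9 FPKM in hypoxia replicates 1 to 3, 35.8 FPKM in hypoxia replicate 4 and 176 FPKM in hypoxia replicate 5. Controls had 15.3, 23.7, 15.4, 17.3 and 16.5 FPKM (log2 fold change 0.28, SE 0.14, limma adjusted p = 0.229). As for H2-Eb1, control replicate 2 was the highest control for both chains. Without control replicate 2, H2-Aa was called higher (log2 fold change 0.39, limma adjusted p = 0.0369), the only class II member to pass in any fit that left out 1 library. Control replicate 2 was also the highest control for summed leukocyte (19.2 FPKM), macrophage (97.9 FPKM) and dendritic cell markers (6.38 FPKM). The 20 interferon gamma pathway genes described below summed to 116.7 FPKM in control replicate 2, against 85.0 to 90.8 FPKM in the other controls. The part of these cells and of interferon gamma in its class II level was not tested.

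H2-DM, a class II-like molecule of the endosome, helps exchange peptides on class II molecules. H2-DMb1 (chr17:34153072-34160230, plus strand), a beta chain of H2-DM, had 6.31, 9.14 and 12.3 FPKM in hypoxia replicates 1 to 3, 16.4 FPKM in hypoxia replicate 4 and 24.1 FPKM in hypoxia replicate 5. Controls had 6.89, 9.20, 5.95, 6.94 and 6.37 FPKM (log2 fold change 0.33, SE 0.20, limma adjusted p = 0.309). H2-DMa (chr17:34119541-34139101, plus strand), the alpha chain, had 2.27, 2.51 and 2.98 FPKM in hypoxia replicates 1 to 3, 5.43 FPKM in hypoxia replicate 4 and 18.1 FPKM in hypoxia replicate 5. Controls had 1.87, 2.76, 1.59, 1.82 and 1.92 FPKM (log2 fold change 0.32, SE 0.15, limma adjusted p = 0.196). Hypoxia replicates 1 to 3 overlapped the controls for both, and H2-DMa overlaps Brd2 on the other strand, a gene at a mean of 21.7 FPKM whose reads cannot be told apart from its own where the genes overlap. H2-DMb2 (chr17:34143307-34151555, plus strand), the second beta chain gene, had 0.457, 0.567 and 0.835 FPKM in hypoxia replicates 1 to 3, 1.87 FPKM in hypoxia replicate 4 and 51.2 FPKM in hypoxia replicate 5. Controls had 0.479, 1.01, 0.273, 0.504 and 0.448 FPKM (log2 fold change 0.13, SE 0.23, limma adjusted p = 0.762). H2-DMb1 and H2-DMb2 share 11.3% and 10.3% of their 100-base stretches with each other.

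H2-DO, made of H2-Oa and H2-Ob, restrains H2-DM and is known chiefly from B cells. H2-Ob (chr17:34238903-34254414, plus strand) had 0.530, 0.307 and 0.358 FPKM in hypoxia replicates 1 to 3, 0.314 FPKM in hypoxia replicate 4 and 20.7 FPKM in hypoxia replicate 5, against 0.189, 0.260, 0.221, 0.256 and 0.246 FPKM in controls. H2-Oa (chr17:34092340-34095234, plus strand) had 0.122, 0.274 and 0.415 FPKM in hypoxia replicates 1 to 3, 0.481 FPKM in hypoxia replicate 4 and 16.2 FPKM in hypoxia replicate 5, against 0.0424, 0.346, 0.212, 0.313 and 0.214 FPKM in controls. Both were below the filter of a mean of 0.5 FPKM over the 8 libraries and were not tested; hypoxia replicates 1 to 3 lay above the controls for H2-Ob and overlapped them for H2-Oa. H2-Eb2 was at 0.0325 to 0.1204 FPKM in hypoxia replicates 1 to 3, 0.166 FPKM in hypoxia replicate 4, 8.22 FPKM in hypoxia replicate 5 and at most 0.0898 FPKM in controls. H2-Pa and H2-Pb had no read in any library.

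In hypoxia replicate 5 the ratios to the control mean ranged widely within both classes. H2-DMb2, H2-Ob and H2-Oa in class II and H2-T-ps in class I reach a mean of 1 FPKM only through this library, so a count or a range over the members averaging at least 1 FPKM is partly set by it. The 12 class I members with that mean were 0.919 to 6.21 times the control mean. Among members with lower means, H2-Eb2 was 181 times, and in class I H2-M2 29.8 times and H2-T10 13.4 times, the control mean. H2-DMb2 was 94.4 times, H2-Ob 88.3 times and H2-Oa 72.0 times the control mean, whereas H2-Aa, H2-DMa, H2-Ab1 and H2-Eb1 were 7.73 to 9.999 times and H2-DMb1 3.41 times. Ratios between members also differed from the controls. H2-DMb2 was 2.13 times the level of H2-DMb1 in this library, against 0.0458 to 0.110 in controls, and H2-Ob was 0.0896 times the level of H2-Ab1, against 0.00628 to 0.0111 in controls. These are values of 1 library and have no test.

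The 10 B cell markers summed to 455 FPKM in hypoxia replicate 5, 244 times the control mean. Cd79a, a part of the B cell receptor complex, had 105.5 FPKM there and at most 0.502 FPKM in controls. T cell markers summed to 81.6 FPKM, dendritic cell markers to 47.7 FPKM and macrophage markers to 1085 FPKM in hypoxia replicate 5, against at most 2.40, 6.38 and 97.9 FPKM in controls. Lyz2 held 756 FPKM of the macrophage sum. Class II summed to 825 FPKM in hypoxia replicate 5 and 74.2 to 132.9 FPKM in controls, while proximal tubule markers were 0.445 times the control mean in that library. In the same library the 8 pancreas acinar markers summed to 52.2 FPKM, against 32.4 to 49.6 FPKM in controls. Cela1 was below all controls (17.7 FPKM) and every other one above them, Ctrb1 at 15.4 FPKM against at most 0.0680 FPKM. Adrenal cortex markers summed to 14.2 FPKM against 0.920 to 1.55 FPKM, of which Star held 11.1 FPKM, with Cyp11b1 and Hsd3b1 at 0. The part of these cells and tissues in the class II level was not tested.

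Hypoxia replicate 4 was above all controls for 15 of the 20 members averaging at least 1 FPKM. These were 7 of 12 class I and 8 of 8 class II members. The 20 include the 4 that reach that mean only through hypoxia replicate 5. The share of all genes above all controls in hypoxia replicate 4 was not computed, so the count is not a result about the members. In hypoxia replicate 4 the ratios to the control mean were 0.716 to 3.20 in class I, highest for H2-Q6. They were 1.34 to 3.45 in class II, highest for H2-DMb2. Macrophage markers summed to 186 FPKM in this library against 72.8 to 97.9 FPKM in controls, leukocyte markers to 29.1 FPKM against 11.9 to 19.2 FPKM, and B cell markers to 3.18 FPKM against 1.61 to 2.36 FPKM. Lyz2 held 88.5 FPKM of the macrophage sum. Csf1r, at 8.24 FPKM, lay below all controls (9.07 to 13.5 FPKM), and every other macrophage marker lay above them. Adrenal cortex markers were 823 times and fat tissue markers 6.66 times the control mean. The part of these tissues in its MHC levels was not tested. With all 5 hypoxia libraries in the fit, 0 of 9 tested class II members were called, beside 11.5% of all genes. Of the 9, 2 had an unadjusted limma p below 0.05, a share not computed over all genes. The median log2 fold change was 1.03 beside 0.01 over all genes. H2-Oa, H2-Ob and H2-Eb2 passed the filter only through hypoxia replicate 5, so the counts and the median rest partly on that library.

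**Figure D4:**
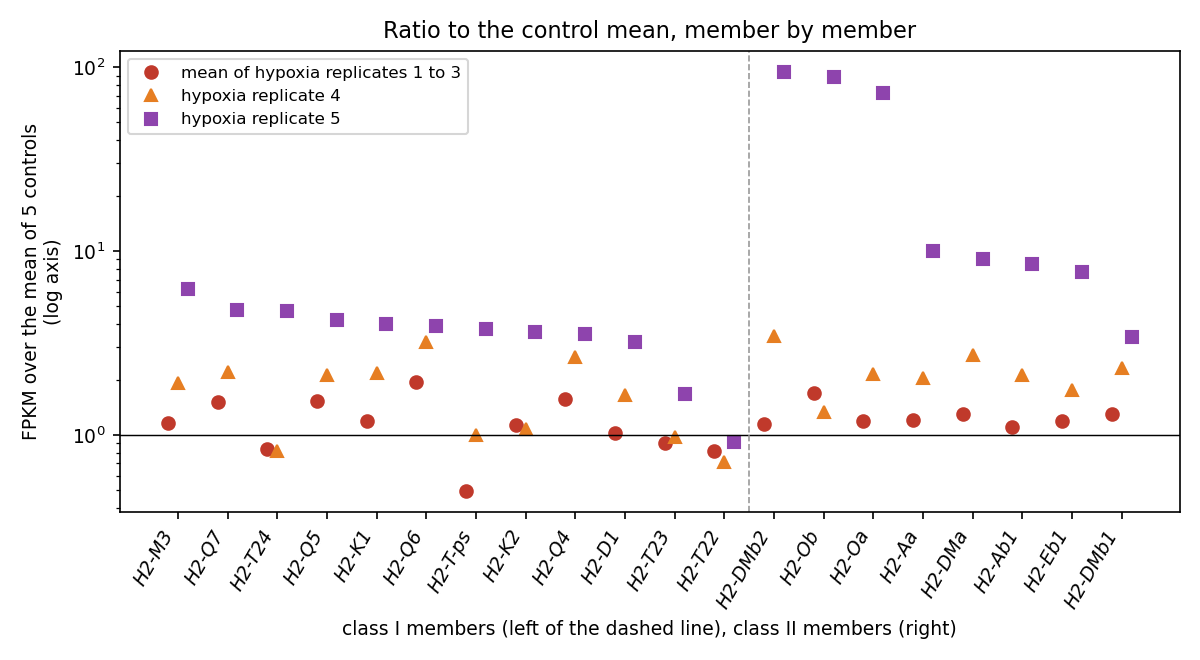
FPKM over the mean of the 5 controls (vertical log axis) for the 12 class I members left of the dashed line and the 8 class II members right of it; red points are the mean of hypoxia replicates 1 to 3, orange triangles hypoxia replicate 4 and purple squares hypoxia replicate 5. In hypoxia replicate 5 the ratios of H2-DMb2, H2-Ob and H2-Oa are 72.0 to 94.4, and those of the 12 class I members drawn at most 6.21. H2-DMb2, H2-Ob, H2-Oa and H2-T-ps average 1 FPKM only through that library. Among members below that mean, not drawn, its ratio was 29.8 for H2-M2 and 13.4 for H2-T10 in class I and 181 for H2-Eb2 in class II.

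Of the 15 genes for class I peptide loading, all tested, 1 was called higher and 2 lower, with a median log2 fold change of 0.11. B2m, the shared light chain, had 362, 352 and 454 FPKM in hypoxia replicates 1 to 3, 827 FPKM in hypoxia replicate 4 and 1325 FPKM in hypoxia replicate 5, against 247, 335, 239, 247 and 261 FPKM in controls. All 5 hypoxia libraries lay above all controls (log2 fold change 0.55, SE 0.13, limma adjusted p = 0.0281); the call was lost in 5 of the 8 fits that left out 1 library, with adjusted p up to 0.103 without hypoxia replicate 3, and with all 5 hypoxia libraries (0.0573).

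The 2 called lower are chaperones of the endoplasmic reticulum that serve glycoprotein folding in general as well as class I loading. Calr (calreticulin) had 146, 152 and 137 FPKM in hypoxia replicates 1 to 3, 153 FPKM in hypoxia replicate 4 and 148 FPKM in hypoxia replicate 5. Controls had 280.4, 306, 346, 258 and 322 FPKM (log2 fold change -1.05, SE 0.10, limma adjusted p = 0.000688). Pdia3, a disulfide isomerase of the loading complex, had 142, 131 and 124 FPKM in hypoxia replicates 1 to 3, 142 FPKM in hypoxia replicate 4 and 135 FPKM in hypoxia replicate 5. Controls had 191, 210.3, 228, 170.4 and 199.8 FPKM (log2 fold change -0.59, SE 0.10, limma adjusted p = 0.00795). For both, all 5 hypoxia libraries lay below all controls, hypoxia replicates 4 and 5 included, and both calls held in every limma and voom fit tried.

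The peptide transporter subunit Tap1 had 2.08, 2.98 and 2.08 FPKM in hypoxia replicates 1 to 3 and 1.52 to 3.08 FPKM in controls (log2 fold change 0.20, SE 0.19, limma adjusted p = 0.529). The immunoproteasome subunit Psmb8 had 1.74, 1.81 and 1.71 FPKM in hypoxia replicates 1 to 3 and 1.60 to 2.50 FPKM in controls (log2 fold change -0.15, SE 0.12, limma adjusted p = 0.443). Nlrc5, the class I transactivator, had 0.584, 0.849 and 0.749 FPKM in hypoxia replicates 1 to 3 and 0.368 to 0.703 FPKM in controls (log2 fold change 0.25, SE 0.16, limma adjusted p = 0.340). The groups overlapped for all of these genes. Tap1, Psmb8 and Nlrc5 stood at 4.56, 3.32 and 1.37 FPKM in hypoxia replicate 4. In hypoxia replicate 5 they stood at 15.2, 12.1 and 5.59 FPKM.

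Of 12 tested genes for class II assembly and control, 1 was called higher, with a median log2 fold change of 0.14. It was Marchf1, a ubiquitin ligase that lowers class II at the surface, with 1.47, 0.894 and 1.22 FPKM in hypoxia replicates 1 to 3, 0.828 FPKM in hypoxia replicate 4 and 8.51 FPKM in hypoxia replicate 5, against 0.560 to 0.741 FPKM in controls (log2 fold change 0.51, SE 0.14, limma adjusted p = 0.0497). That call was lost in 7 of the 8 fits that left out 1 library, with adjusted p up to 0.184 without hypoxia replicate 1. Cd74, the invariant chain, had 107, 118 and 153 FPKM in hypoxia replicates 1 to 3, 241 FPKM in hypoxia replicate 4 and 1148 FPKM in hypoxia replicate 5, against 84.9 to 158 FPKM in controls (log2 fold change 0.28, SE 0.21, limma adjusted p = 0.420). Ciita, the class II transactivator, had 0.557, 0.629 and 0.948 FPKM in hypoxia replicates 1 to 3, 0.946 FPKM in hypoxia replicate 4 and 10.6 FPKM in hypoxia replicate 5, against 0.429 to 0.799 FPKM in controls (log2 fold change 0.15, SE 0.17, limma adjusted p = 0.622). Cd74 and Ciita overlapped between the groups, as the class II chains did.

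Of the interferon gamma pathway, 17 of 20 genes were tested and 0 were called by limma, with 0 called by voom and a median log2 fold change of 0.06. An unadjusted limma p below 0.05 was found for 0 of them, a share not computed over all genes. Ifng itself had no read in hypoxia replicates 1 to 4, 0.169 FPKM in hypoxia replicate 5 and at most 0.0465 FPKM in controls. Irf1, a transcription factor induced by interferon gamma, had 2.90, 3.95 and 3.01 FPKM in hypoxia replicates 1 to 3 and 1.70 to 4.61 FPKM in controls (log2 fold change 0.17, SE 0.25, limma adjusted p = 0.699). The most abundant genes of the list were the kinase Jak1 and the receptor chain Ifngr1. Jak1 had 23.3 ± 1.91 FPKM in hypoxia replicates 1 to 3 (SD, n = 3) and 24.3 ± 1.34 FPKM in controls (SD, n = 5). Ifngr1 had 14.4 ± 1.48 FPKM in hypoxia replicates 1 to 3 and 13.7 ± 0.80 FPKM in controls. In hypoxia replicates 4 and 5, Irf1 had 4.79 and 9.63 FPKM, Jak1 24.8 and 45.6 FPKM, and Ifngr1 16.8 and 38.2 FPKM. The 20 genes summed to 117.3 FPKM in hypoxia replicate 4 and 236.8 FPKM in hypoxia replicate 5, against 85.0 to 116.7 FPKM in controls. With all 5 hypoxia libraries, 0 of 18 tested genes were called, beside 11.5% of all genes. All 18 fold changes were then positive, with a median of 0.38 on the log2 scale.

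Of the type I interferon response, 18 of 20 genes were tested and 1 was called higher, with a median log2 fold change of 0.15. It was Irf9, the DNA-binding part of the factor that acts on the interferon-stimulated response element, with 4.78, 4.59 and 4.98 FPKM in hypoxia replicates 1 to 3, 5.30 FPKM in hypoxia replicate 4 and 10.9 FPKM in hypoxia replicate 5. Controls had 3.33, 4.08, 3.37, 3.92 and 3.78 FPKM (log2 fold change 0.34, SE 0.08, limma adjusted p = 0.0322). The groups did not overlap, and the call was lost in 6 of the 8 fits that left out 1 library, with adjusted p up to 0.112 without hypoxia replicate 3. The shares called in these lists stand beside 4.53% higher and 7.75% lower among all genes tested.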

How the data were processed

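RNA of 10 kidney samples was measured by RNA sequencing. The authors deposited 1 table of FPKM values with coordinates and the length of each gene (bases, an other unit from which reads were recovered). The aligner was HISAT2 2.0.5, per the submitters' processing notes. These name a human build, hg38, but the identifiers are those of the mouse, and all 45 members had identical coordinates in a GRCm38 annotation. The counting tool, its strand setting and its handling of multiple matches are not stated in the labels. FPKM times length gave whole reads for 100% of values (tolerance 0.05), 16561672 to 17845464 per library; depth-based floors cover counting error only.

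Groups came from the treatment label. Genes averaging at least 0.5 FPKM over the fitted libraries were tested on log2(FPKM + 0.5), without further scaling, with limma 3.58.1 in R 4.3.3 (trend and robust, two-sided, Benjamini-Hochberg, threshold 0.05), hypoxia minus control. A median over a list covers its tested members. The test was tried on simulated data. Every member averaging at least 1 FPKM in 10 libraries is named with values, other members by range; of each pathway list, up to 4 called genes or the 2 most abundant, and 9 genes always; an item that the rule takes is not reported here. H2-Q2, H2-Q10, H2-T10, H2-Eb2, H2-Bl and Cd79a were given values outside that rule after these were seen. The members, lists and the setting apart of hypoxia replicates 4 and 5 were chosen with earlier results of these data known. Alternatives covered scaling, pseudocount, filter, error model, voom on recovered reads, threshold, a replicate block, leaving out each library and an exact permutation test. The 2 fits of all libraries without hypoxia replicate 4 or 5 were chosen after seeing the data. All pairs of replicates differed beyond sampling noise. Promoters are RefSeq, GRCm38.p6 (32 of 45 members matched). Plots used matplotlib 3.10.9 and Python 3.11.15.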

Additional observations from a re-analysis of the deposited data

Results flagged for a closer look

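In each labelled group of 5, the highest or lowest library was set apart where its gap to the nearest library exceeded 0.71 of the group's range. This was so in 21 of 44 groups examined (the 20 members averaging at least 1 FPKM and the 2 class sums, in hypoxia and in control), where chance gives about 1 in 20. The count cannot be read against that share: H2-Oa, H2-Ob, H2-DMb2 and H2-T-ps average 1 FPKM only through hypoxia replicate 5, and the class sums hold the same members.

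Hypoxia replicate 5 was the library far above the other hypoxia libraries in 14 of these. In class II it had 16.2 FPKM for H2-Oa, 18.1 FPKM for H2-DMa, 51.2 FPKM for H2-DMb2, 20.7 FPKM for H2-Ob, 231 FPKM for H2-Ab1, 176 FPKM for H2-Aa and 279 FPKM for H2-Eb1, and the class II sum was 824.9 FPKM. In class I it had 4.52 FPKM for H2-K2, 17.3 FPKM for H2-Q7, 16.7 FPKM for H2-T24, 54.9 FPKM for H2-T23, 3.75 FPKM for H2-T-ps and 12.9 FPKM for H2-M3. H2-K1, H2-D1, H2-Q4, H2-Q5, H2-Q6 and H2-T22 were not set apart in that group.

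Control replicate 2 was the library far above the other controls for H2-DMa (2.76 FPKM), H2-Ab1 (41.5 FPKM), H2-Aa (23.7 FPKM), H2-Eb1 (54.0 FPKM), H2-Q4 (10.8 FPKM) and the class II sum (132.9 FPKM). Control replicate 4 was far below the other controls for H2-Q5, at 1.80 FPKM.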

How the results depend on the processing

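H2-Q6, Calr and Pdia3 kept their calls in every limma and voom fit tried. In an exact permutation test of single genes, each had an unadjusted p of 0.0357, the smallest possible with 56 regroupings. Benjamini-Hochberg adjustment over the genes tested this way gave 0.110 for each, which is not below 0.05. Against 1808 genes called in all, no filter on low values gave 1037, a threshold of 0.01 gave 455, and leaving out 1 library gave 761 to 2076. All libraries without hypoxia replicate 5 gave 2724 and without hypoxia replicate 4 gave 1053. Quantile normalization split the calls as 860 higher and 931 lower, against 667 and 1141. Class I members called fell to 3 with all 10 libraries, 2 with no filter, 1 at a threshold of 0.01, 2 to 5 when 1 library was left out, and 1 in all libraries without hypoxia replicate 4, against 5. Class II members called ranged from 0 to 1 and class I processing genes from 2 to 5 over the fits that left out 1 library; all libraries without hypoxia replicate 5 also gave 5 class I processing genes, against 3. Marchf1 was the 1 class II processing gene called; 0 were called with all 10 libraries, a pseudocount of 0.1, no filter, a filter at 2 FPKM or a threshold of 0.01, 2 with quantile normalization, which did not include Marchf1 (adjusted p = 0.0748), and 0 to 1 with 1 library left out. Irf9, the 1 type I interferon gene called, was not called with all 10 libraries, no filter or a threshold of 0.01 (0 genes), and 0 to 1 type I interferon genes were called with 1 library left out, the 1 without control replicate 5 being lower.

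Whether the replicate numbers pair the samples cannot be settled from these values. After removal of the group means, same-numbered libraries correlated at 0.03, 0.14 and -0.01 for hypoxia replicates 1 to 3. The same-numbered control was the closest for hypoxia replicate 2, and not for hypoxia replicates 1 and 3. With all 5 hypoxia libraries it was the closest for hypoxia replicates 2 and 3, and not for 1, 4 and 5. With the replicate block, 881 genes were called (999 with all 10 libraries), 2 class I members (2 with all 10 libraries), 0 class II processing genes (0 with all 10) 1 type I interferon gene, which was lower (0 with all 10), and 2 class I processing genes, both lower. The calls of H2-Q5, H2-Q7, B2m and Irf9 were lost under the block of replicates 1 to 3, with adjusted p of 0.104, 0.0540, 0.137 and 0.1001, and H2-D1 turned to -0.013.

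Directions turned for genes that were not called. With all 10 libraries, blocked or not, the log2 fold change was 0.24 for H2-T24, 0.056 for H2-T23, 0.15 for Jak1 and 0.50 for Psmb8, and quantile normalization gave 0.020 for Jak1. Over the 8 fits that left out 1 library, the range was -0.077 to 0.33 for H2-K2, -0.0088 to 0.27 for H2-DMb2, -0.0088 to 0.096 for H2-D1, -0.11 to 0.0048 for Jak1 and -0.014 to 0.12 for Ifngr1. In all libraries without hypoxia replicate 4, it was 0.36 for H2-T24, 0.078 for H2-T23, 0.18 for Jak1 and 0.47 for Psmb8, and in all libraries without hypoxia replicate 5, it was 0.038 for Psmb8. The cause of these changes was not tested.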
